A study of Penicillium oxalicum with 6 samples.

Results

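The genes *rsrA* (POX_a00019), *rsrB* (POX_g08691) and *rsrC* (POX_a01508) of the filamentous fungus *Penicillium oxalicum* were chosen by their gene numbers, as 3 of the 9822 genes listed in each RNA-seq table. All 3 reached a mean of 1 FPKM (the fragments of a gene per unit of its length, relative to all fragments that were mapped in the library) over the 6 libraries, the level above which genes were tested. Together, 8605 genes were tested.

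The parental strain Δ*ku70* (3 libraries) was compared with the deletion mutant Δ*rsrC* (3 libraries), which was made in the Δ*ku70* background. Both strains therefore lack *ku70*, a gene of non-homologous end joining whose loss raises the share of introduced DNA that integrates at its target. Both carry a hygromycin resistance marker, and Δ*rsrC* also carries a geneticin marker. The labels give the parental strain as wild type and the mutant by an older gene number, which the text of the study does not print. The mutant is taken as Δ*rsrC* because the study describes this comparison and because *rsrC* was listed at 0 in all 3 mutant libraries. Cultures grew from spores on glucose for 24 h, and RNA was taken from the mycelium 24 h after transfer to an inducing medium. For the inducing medium, 1 label field names Avicel (a cellulose), the protocol names raw starch, and the study names commercial corn starch. The medium was the same for both strains under each of these names. Whether the libraries of a strain came from separate cultures, and whether the Δ*rsrC* libraries came from 1 transformant or several, is not given in the sources used here, so the p-values measure the spread between these libraries only.

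Fungi that live on starch secrete glucoamylases and α-amylases, and they switch the genes of these enzymes on through transcription factors when starch is present and glucose is low. In *P. oxalicum*, RsrA is a regulator with SANT-like domains that is required for normal amylase gene expression on raw starch. RsrB is a Zn2Cys6 protein, a DNA-binding class found almost only in fungi. RsrC is a zinc finger protein of the C2H2 class. The study examined them as a chain, in which RsrC would act on *rsrA* and RsrA on *rsrB*. The comparison asks how the transcripts of the other 2 regulators stood when the gene of the first was deleted.

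Of the 3 regulators, *rsrC* was listed at 0 in every Δ*rsrC* library, *rsrA* fell by 29.9% and *rsrB* did not pass the test, with a mean 14.9% higher in Δ*rsrC*. Thus 2 of the 3 had an adjusted p-value under 0.05, both lower in the mutant, where 39.3% of all tested genes passed, 25.6% with a lower level and 13.8% with a higher one. The same 2 did not overlap between the strains, as was the case for 54.7% of tested genes (35.2% with the mutant lower). With *rsrC* removed by design, this leaves 1 of the 2 other regulators called.

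The deleted gene was examined first, since its level is part of what identifies the mutant. In Δ*ku70*, *rsrC* was at 27.1, 30.3 and 39.0 FPKM in replicates 1, 2 and 3 (32.1 ± 6.19, SD, n = 3). It was listed at 0 in Δ*rsrC* replicates 1, 2 and 3. The strains were therefore fully separated at this gene, with the mutant at 0. As that value helps to tie the mutant to *rsrC*, it is not a separate check of the labels. Of 2229 genes whose length in the RefSeq annotation lies within 20% of that of *rsrC*, 68, 64 and 65 were at 0 in Δ*rsrC* replicates 1, 2 and 3, and the lowest value above 0 among them was 0.09, 0.08 and 0.1 FPKM. Over the whole table, 647 genes were listed at 0 in all 3 Δ*rsrC* libraries, and *rsrC* was the 1 gene among them with at least 10 FPKM in each Δ*ku70* library. As *rsrC* was deleted, the outcome of its test was fixed by the design. In the limma fit the log2 change of *rsrC* was -5.03 on the log2(FPKM + 1) scale, with an adjusted p-value of 1.26e-04. That size is set by the pseudocount added before taking logarithms (-8.31 with 0.1 in place of 1), so no fold change is given.

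Transcripts of *rsrA*, the gene next in that chain, measured 26.0, 27.8 and 33.4 FPKM in replicates 1, 2 and 3 of Δ*ku70*. They measured 23.2, 18.0 and 19.9 FPKM in replicates 1, 2 and 3 of Δ*rsrC*. The highest mutant library lay below the lowest parental library, with a gap smaller than the range within either strain. The means were 29.1 ± 3.83 and 20.4 ± 2.66 FPKM (SD, n = 3 each). The log2 change of *rsrA* was -0.49 (SE 0.143, 95% confidence interval -0.83 to -0.15), with an adjusted p-value of 0.0329 in limma. In mycelium, less transcript per cell and fewer cells that transcribe a gene cannot be told apart.

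The fall of *rsrA* was of a common size in this comparison. Over all tested genes the median log2 change was -0.13, and 25.3% of them had a lower change than *rsrA*. Relative to the median tested gene of its own library, *rsrA* stood at 0.667, 0.690 and 0.844 in Δ*ku70* and at 0.666, 0.510 and 0.589 in Δ*rsrC*. On this scale Δ*ku70* replicate 1 and Δ*rsrC* replicate 1 held nearly the same level of *rsrA*. The median itself was 39.0 to 40.4 FPKM in the parental libraries, against 33.9 to 35.2 FPKM in those of the mutant. After median-ratio scaling, which removes such a shift, the log2 change of *rsrA* was -0.36 (adjusted p = 0.0908), and after quantile normalisation it was -0.27 (adjusted p = 0.189). With FPKM rescaled to the same sum in each library, as TPM is, it was -0.71 (adjusted p = 0.00543).

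The *rsrA* call was also lost in fits without certain single libraries. Of 14 alternative settings, 6 kept an adjusted p-value under 0.05, and the range over all of them was 0.00543 to 0.189. Leaving out the library with the highest *rsrA* level, Δ*ku70* replicate 3, gave 0.0668 (log2 change -0.39), and leaving out that with the lowest, Δ*rsrC* replicate 2, gave 0.103 (-0.41). The adjusted p-value also rose above 0.05 on leaving out replicate 2 of the parent (0.0658) or replicate 3 of the mutant (0.0816). In these fits the log2 change was -0.52 and -0.48, near the reported -0.49. The standard error was larger, at 0.169 and 0.174 against 0.143, so these losses do not show dependence on the library left out. In all 14 settings *rsrA* had a log2 change below 0.

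Transcripts of *rsrB*, the last gene of the chain, measured 52.3, 54.1 and 71.3 FPKM in replicates 1, 2 and 3 of Δ*ku70*. In Δ*rsrC* replicates 1, 2 and 3 it was at 72.1, 69.1 and 63.1 FPKM. The strains overlapped, because Δ*ku70* replicate 3 lay above 2 of the 3 mutant libraries, while the other 2 parental libraries lay below all of them. The means were 59.2 ± 10.5 and 68.1 ± 4.55 FPKM (SD, n = 3 each). The log2 change of *rsrB* was 0.21 (SE 0.143, 95% confidence interval -0.13 to 0.55; adjusted p = 0.278 in limma). The interval spans both a lower and a higher level in the mutant, and 71.9% of tested genes had a lower change than *rsrB*.

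The size of the *rsrB* difference depended on the scaling, and its log2 change was above 0 in 13 of the 14 alternatives. Relative to the median tested gene of each library, *rsrB* stood at 1.34, 1.34 and 1.81 in Δ*ku70* and at 2.07, 1.96 and 1.86 in Δ*rsrC*. On this scale the strains did not overlap, by a narrow gap between Δ*ku70* replicate 3 and Δ*rsrC* replicate 3. The share of all tested genes separated on this scale was not counted. The log2 change was 0.35 after median-ratio scaling (adjusted p = 0.0843) and -0.016 after TPM rescaling (SE 0.133, adjusted p = 0.930). The gene passed the test in 0 of the 14 alternative settings, with adjusted p-values of 0.0505 to 0.930. The lowest of these, with a log2 change of 0.35, came without Δ*ku70* replicate 3, the parental library with the highest *rsrB* level.

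**Figure D1:**
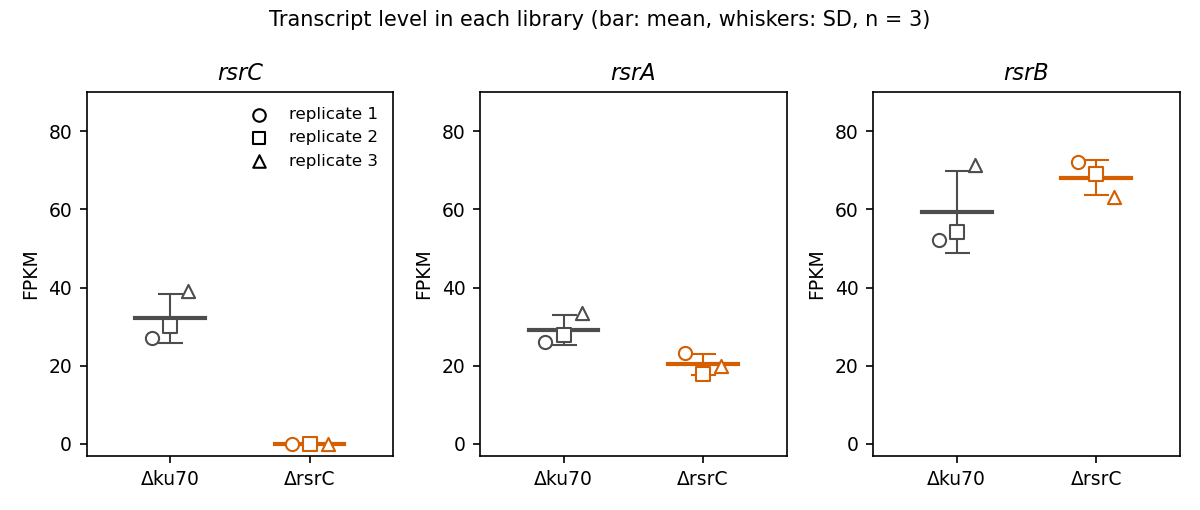
FPKM of *rsrC*, *rsrA* and *rsrB* in each of the 3 Δ*ku70* (grey) and 3 Δ*rsrC* (orange) libraries, with symbols for replicates 1 to 3, a bar at the mean and whiskers of 1 SD. The strains are separated at *rsrC* (27.1 to 39.0 FPKM against 0) and, narrowly, at *rsrA* (26.0 to 33.4 against 18.0 to 23.2 FPKM), and they overlap at *rsrB* (52.3 to 71.3 against 63.1 to 72.1 FPKM).

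**Figure D2:**
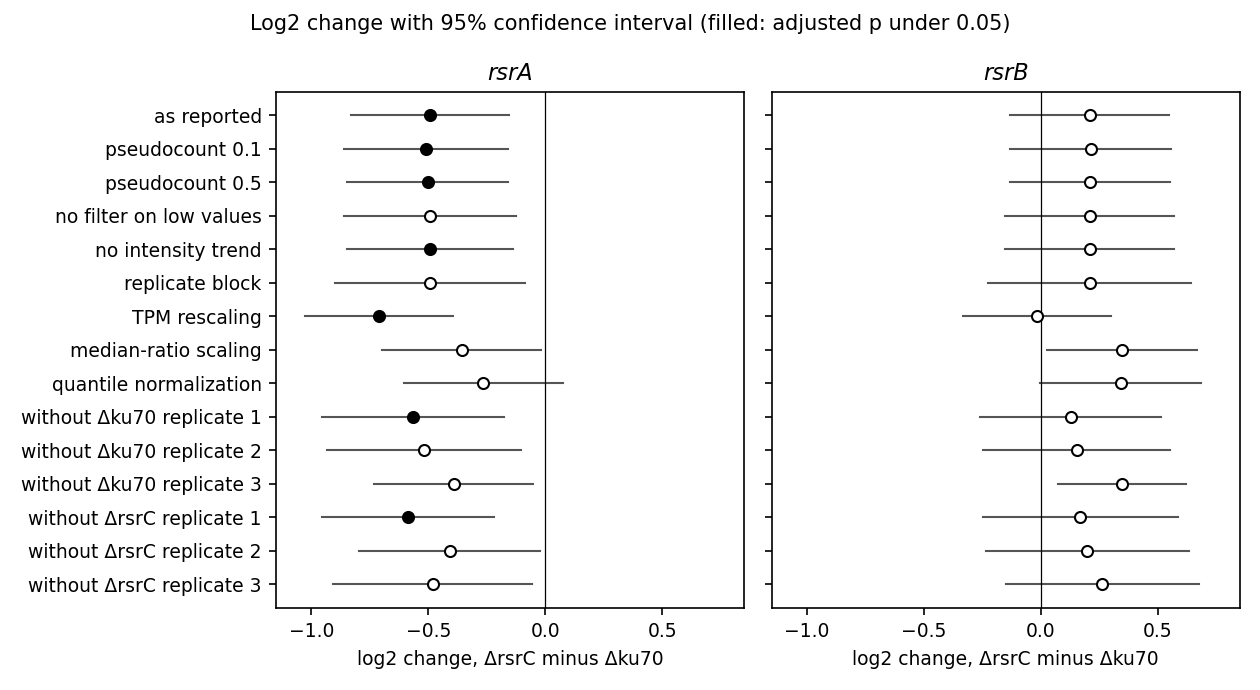
Log2 change of *rsrA* and *rsrB* (Δ*rsrC* minus Δ*ku70*) with its 95% confidence interval in the reported fit and under 14 alternative settings, filled where the adjusted p-value was under 0.05. The points of *rsrA* lie between -0.71 and -0.27 and are filled in 6 of the 14 alternatives, and those of *rsrB* lie between -0.016 and 0.35 and are filled in none.

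All 3 regulators had middling transcript levels in the parental strain. In Δ*ku70* replicates 1, 2 and 3, *rsrB* was above 58.7%, 59.1% and 67.0% of tested genes. For *rsrC* the shares were 38.5%, 41.1% and 49.6%, and for *rsrA* they were 37.4%, 38.7% and 44.6%. Thus *rsrB* lay above the median gene in every parental library and the other 2 below it. In Δ*rsrC* replicates 1, 2 and 3, *rsrA* was above 38.4%, 31.1% and 34.7% of tested genes, and *rsrB* above 69.2%, 67.7% and 66.5%.

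As FPKM is scaled to gene length, the levels of the 3 regulators can be set beside each other. Within each parental library the order was *rsrB*, then *rsrC*, then *rsrA*. The level of *rsrB* was 1.93, 1.79 and 1.83 times that of *rsrC* in Δ*ku70* replicates 1, 2 and 3, and its lowest value lay above the highest of *rsrC*. The level of *rsrC* was 1.04, 1.09 and 1.17 times that of *rsrA*. Thus *rsrC* was above *rsrA* in 3 of 3 libraries, by little, and the FPKM ranges of these genes over the libraries overlapped.

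The 3 regulators varied in the same order over the parental libraries. Each was lowest in Δ*ku70* replicate 1 and highest in replicate 3, an order shared by 1958 tested genes (22.8%), and 44.2% of tested genes were highest in replicate 3. The level in replicate 3 was 1.28 times that in replicate 1 for *rsrA*, 1.36 times for *rsrB* and 1.44 times for *rsrC*, against 1.03 times for the median gene. Their levels relative to each other varied less than the levels themselves. The coefficient of variation (SD as a share of the mean) over the parental libraries was 13.2% for *rsrA*, 17.8% for *rsrB* and 19.3% for *rsrC*. For the ratios it was 4.83% (*rsrB* to *rsrA*), 3.97% (*rsrB* to *rsrC*) and 5.94% (*rsrC* to *rsrA*). How many other pairs of genes hold ratios this steady was not counted. With 3 libraries no correlation was computed, and genes read from 1 library share its scaling.

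In Δ*rsrC* this shared order was not seen. There *rsrA* was highest in replicate 1 and lowest in replicate 2, while *rsrB* was highest in replicate 1 and lowest in replicate 3. Of all tested genes, 34.7% were highest in Δ*rsrC* replicate 1. Whether *rsrA* and *rsrB* vary together in the mutant cannot be told from 3 libraries. The spread of *rsrA* on the log2 scale was the same in both strains (SD 0.18 in each). That of *rsrB* was 0.24 in Δ*ku70* and 0.096 in Δ*rsrC*, where the median tested gene had 0.18 and 0.16.

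The ratio of *rsrB* to *rsrA* within a library does not depend on any single factor by which that library was scaled. It was 2.01, 1.95 and 2.14 in Δ*ku70* replicates 1, 2 and 3, and 3.10, 3.85 and 3.17 in Δ*rsrC* replicates 1, 2 and 3. Every mutant library thus held more *rsrB* relative to *rsrA* than any parental library. How many other pairs of genes were separated in this way was not counted, while 54.7% of single tested genes were. The difference of the log2 ratios was 0.73 (SE 0.106), a ratio 1.65 times as high in Δ*rsrC*. The exact two-sided permutation test gave p = 0.1, the smallest value that 3 against 3 libraries can give, and 0.18 after Benjamini-Hochberg adjustment over the 9 ratios compared. Leaving out each library in turn gave differences of 0.63 to 0.78.

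Both genes were also set against 3 other regulators of amylase genes in the same libraries. These are *creA*, the gene of the carbon catabolite repressor, *amyR*, that of the amylase activator, and *cxrC*, that of a repressor of raw starch-degrading enzyme genes. The log2 ratio of *rsrA* to each of them overlapped between the strains, with differences of 0.096 to *creA* (p = 0.8), -0.18 to *amyR* (p = 0.6) and -0.21 to *cxrC* (p = 0.6, exact permutation tests, two-sided). With standard errors of 0.23, 0.20 and 0.22 for these differences, *rsrA* was not separated from the 3 other regulators, which does not show that they moved alike. The log2 ratio of *rsrB* to each of them was higher in every Δ*rsrC* library than in any Δ*ku70* library. The differences were 0.82 to *creA*, 0.54 to *amyR* and 0.51 to *cxrC*, each at the smallest possible p of 0.1 (exact permutation test, 0.18 after adjustment). All 3 of these genes were themselves lower in the mutant without overlap, as were 35.2% of tested genes. These ratios are therefore not independent, and whether such a separation is particular to *rsrB* was not tested.

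In the limma fit, 1 of these 3 regulators passed. The level of *creA* was 260.1, 240.4 and 278.2 FPKM in the parent and 149.3, 194.8 and 168.4 FPKM in the mutant, a log2 change of -0.61 (adjusted p = 0.0126), which held in all 14 alternatives. The strains did not overlap at *amyR* (53.2 to 61.0 against 42.0 to 50.5 FPKM; log2 change -0.32, adjusted p = 0.0587) or at *cxrC* (27.0 to 31.6 against 22.1 to 25.5 FPKM; -0.29, adjusted p = 0.0816). Of the alternatives, both of these passed under TPM rescaling alone. The log2 change of *rsrA* (-0.49) lay between that of *creA* and that of *amyR*.

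**Figure D3:**
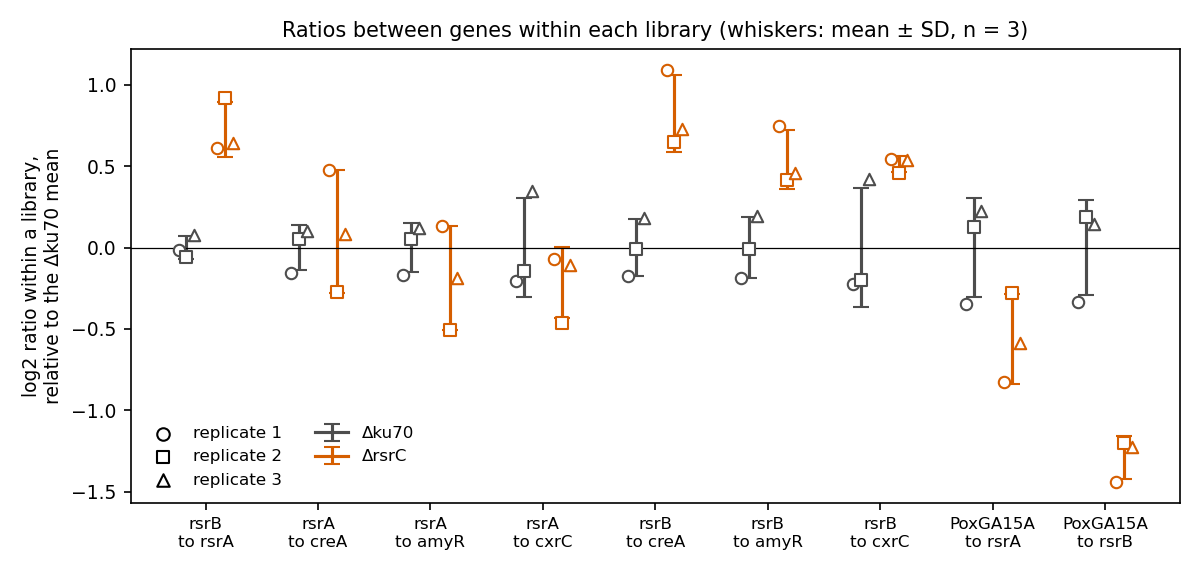
Log2 ratios between genes within each library, drawn relative to the Δ*ku70* mean of each ratio (points: libraries; whiskers: mean ± 1 SD, n = 3). The ratio of *rsrB* to *rsrA* lies 0.73 higher in Δ*rsrC* with no overlap, the ratios of *rsrA* to *creA*, *amyR* and *cxrC* overlap between strains, and the ratio of *PoxGA15A* to *rsrB* lies 1.29 lower (a difference of -1.29) with no overlap.

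The genes that the regulators are tied to were read from the same fit. The study tested the promoters of 4 genes for binding by RsrB. These are *PoxGA15A*, which encodes a glucoamylase that degrades raw starch, *POX_b02418*, of a second glucoamylase, *amy13A*, of an α-amylase, and *brlA*, the central activator of conidiation. In Δ*rsrC*, 2 of the 4 fell and none rose, where 25.6% of all tested genes fell and 13.8% rose. Their median log2 change was -0.58, against -0.13 for all tested genes.

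The main glucoamylase gene *PoxGA15A* was at 772.5, 1151 and 1473 FPKM in the parent and at 494.7, 560.9 and 503.0 FPKM in the mutant. The strains did not overlap, and the log2 change was -1.08 (adjusted p = 0.0122). The second glucoamylase gene, *POX_b02418*, was at 368.8, 534.9 and 871.5 FPKM in the parent and at 187.1, 208.2 and 193.2 FPKM in the mutant, with a log2 change of -1.50 (adjusted p = 0.00872). Both log2 changes lay below that of *rsrA*. In Δ*ku70* both had the order over libraries that the 3 regulators had, lowest in replicate 1 and highest in replicate 3.

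The α-amylase gene *amy13A* had that same order in Δ*ku70* (134.5, 359.9 and 516.7 FPKM) and the reverse in Δ*rsrC* (568.9, 522.2 and 396.7 FPKM). The strains overlapped, and its log2 change was 0.74 (adjusted p = 0.237). That size rested on the parental libraries, with 0.18 when replicate 1 was left out and 1.15 when replicate 3 was. The level of *brlA* was low in all libraries, 0.81 to 1.71 FPKM in the parent and 0.42 to 1.59 FPKM in the mutant. Its log2 change was -0.088 (adjusted p = 0.868) and became 0.15 when replicate 3 of the mutant was left out.

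Set against its regulators within each library, *PoxGA15A* stood at 29.7, 41.4 and 44.2 times the level of *rsrA* in Δ*ku70* and at 21.3, 31.3 and 25.2 times in Δ*rsrC*. These overlapped, with a log2 difference of -0.56 (exact permutation p = 0.2, adjusted 0.3). It stood at 14.8, 21.3 and 20.7 times the level of *rsrB* in Δ*ku70* and at 6.86, 8.12 and 7.97 times in Δ*rsrC*, a log2 difference of -1.29 with no overlap (exact permutation p = 0.1, adjusted 0.18). Each mutant library thus held less *PoxGA15A* transcript per *rsrB* transcript than any parental library. As *PoxGA15A* was itself lower without overlap, this ratio is not independent of that fall.

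Of 5 other amylolytic genes, which the study chose in part on these libraries, 1 rose and 1 fell, where 39.3% of all tested genes passed. Their median log2 change was 0.19, against -0.13 for all tested genes. The α-glucosidase gene *POX_g08885* rose (61.6 to 73.9 FPKM in Δ*ku70*, 149.3 to 182.2 FPKM in the mutant; log2 change 1.24, adjusted p = 0.00140). A further α-glucosidase gene, *POX_e06687*, fell (13.4 to 23.2 against 6.91 to 9.13 FPKM; -1.16, adjusted p = 0.00804). The other 3, *POX_d05520* of a glucan branching enzyme (0.19), and *POX_f08248* (0.21) and *POX_c03853* (0.16) of α-glucosidases, overlapped between the strains and, like *rsrB*, had log2 changes above 0 that were below 0 under TPM rescaling.

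Beside *rsrB*, the study listed 14 other genes of putative transcription factors as candidates downstream of RsrA, from libraries other than these. Like *rsrB*, they were chosen by their change in a mutant without *rsrA*, at an earlier time on corn starch and under a different threshold. They show how *rsrB* compared with its peers in Δ*rsrC*, not whether that earlier change was repeated. Of the 13 that were tested (*POX_c04517* was listed at 0 in all 6 libraries), 2 rose and 4 fell (46.2%, against 39.3% of all tested genes). Their median log2 change was -0.21, against -0.13 for all tested genes, so that both values lay near those of the whole table.

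The 2 candidates that rose were *POX_f08033* and *POX_f08115*. The level of *POX_f08033* was 20.2, 18.5 and 30.8 FPKM in the parent and 74.3, 73.2 and 51.4 FPKM in the mutant (log2 change 1.49, adjusted p = 0.00429). For *POX_f08115* it was 144.7, 113.3 and 146.3 FPKM in the parent and 221.3, 237.5 and 207.7 FPKM in the mutant (0.72, adjusted p = 0.00770). Neither gene overlapped between the strains, and both passed in all 14 alternatives, where *rsrB* passed in none.

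The candidate with the lowest change was *POX_e07032*, at 27.3, 52.5 and 12.4 FPKM in the parent and 4.55, 3.85 and 4.85 FPKM in the mutant (log2 change -2.34, adjusted p = 0.00888, passing in all 14 alternatives). The other 3 that fell were *POX_d04924* (-0.46, adjusted p = 0.0109), *POX_d06066* (-0.74, adjusted p = 0.0211) and *POX_f08102* (-0.73, adjusted p = 0.0393). The call of *POX_f08102* was lost after median-ratio scaling (adjusted p = 0.0683), with no filter (0.0659) and after quantile normalisation (0.0826). The call was also lost without each of the 6 libraries in turn (adjusted p = 0.0539 to 0.0885). That of *POX_d06066* was lost without replicate 1 (0.0731) or replicate 2 (0.0682) of the mutant, with no filter (0.0508) and after quantile normalisation (0.0795), and that of *POX_d04924* after quantile normalisation (0.0845) and with the replicate block (0.0524). A gene of a winged helix protein, *POX_a00746*, had no overlap but did not pass (log2 change -1.04, adjusted p = 0.0801, and -0.57 when replicate 3 of the parent was left out). The remaining 6 tested candidates had log2 changes of -0.24 to 0.28 and did not pass. Among them, *POX_c04767* also had no overlap (6.94 to 9.19 FPKM in the parent, 9.5 to 10.89 FPKM in the mutant; log2 change 0.25, adjusted p = 0.212).

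The genes beside each regulator were read to see whether a regulator differed from its surroundings. Of the 12 genes that make up the 2 nearest on each side of the 3 regulators by number and in the RefSeq gene order, 5 were listed at 0 in all 6 libraries, among them the genes on both sides of *rsrC*, *POX_a01507* and *POX_a01509*. Of the 7 tested, 3 fell and none rose (42.9%, near the 39.3% of all tested genes that passed). Next to *rsrB*, *POX_g08692* fell from 48.9, 51.6 and 61.4 FPKM in the parent to 19.9, 21.8 and 16.0 FPKM in the mutant (log2 change -1.45, adjusted p = 0.00147), while *rsrB* itself was at a log2 change of 0.21. The gene on the other side of *rsrB*, *POX_g08690*, was at 0.032 (adjusted p = 0.929), and the next, *POX_g08689*, fell from 67.7, 72.8 and 72.5 to 43.6, 47.4 and 45.3 FPKM (-0.63, adjusted p = 0.00393).

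Next to *rsrA*, *POX_a00018* was at 24.7, 18.5 and 26.6 FPKM in the parent and 12.5, 15.0 and 13.7 FPKM in the mutant (log2 change -0.71, adjusted p = 0.0147, lost at 0.0538 when replicate 1 of the mutant was left out and at 0.0655 after quantile normalisation). On its other side, *POX_a00020* was at -0.50 (adjusted p = 0.269) and *POX_a00021* at 0.0074 (adjusted p = 0.970). The tested gene nearest to *rsrC*, *POX_a01510*, was at 28.8, 33.1 and 35.2 FPKM in the parent and at 54.4, 44.4 and 33.0 FPKM in the mutant, overlapping (log2 change 0.41, adjusted p = 0.127). It passed when replicate 3 of the mutant was left out (log2 change 0.59, adjusted p = 0.0339) and after quantile normalisation (0.60, adjusted p = 0.0413). The 1 tested neighbour of *rsrC* thus did not share its fall to 0, and the other 3 were at 0 in both strains.

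**Figure D4:**
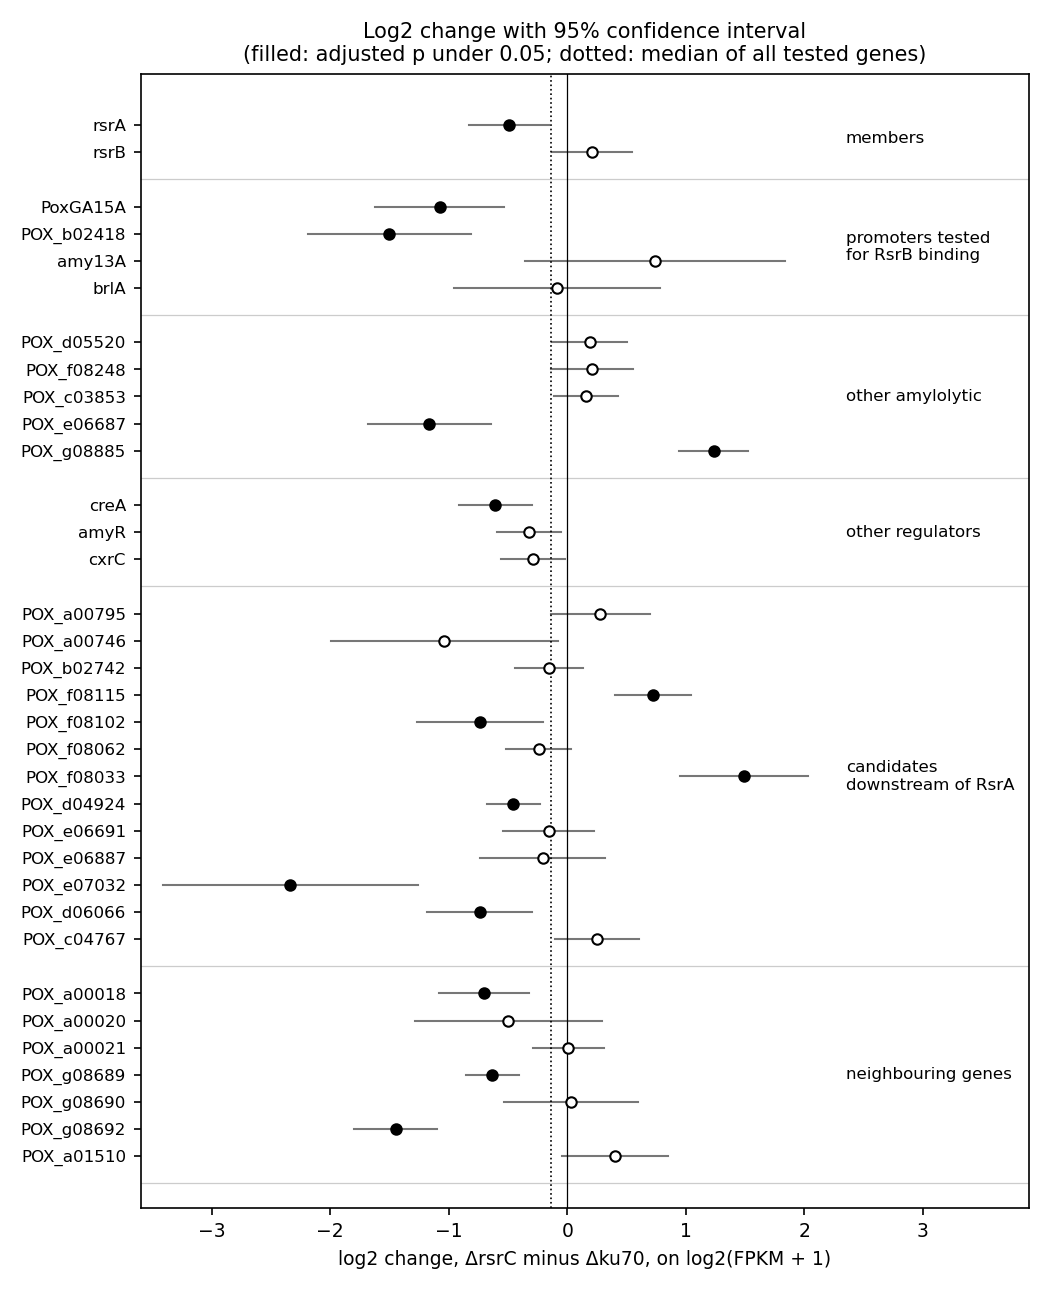
Log2 change (Δ*rsrC* minus Δ*ku70*, on log2(FPKM + 1)) with its 95% confidence interval for *rsrA*, *rsrB* and the tested genes of the lists, filled where the adjusted p-value was under 0.05, with a dotted line at the median of all tested genes (-0.13). The interval of *rsrA* (-0.83 to -0.15) lies below 0 and that of *rsrB* (-0.13 to 0.55) spans it, while *POX_g08692* beside *rsrB* is at -1.45.

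Among 7099 other genes whose mean reached 10 FPKM, those most like each regulator over the libraries were found by the root mean square difference between their centred log2(FPKM + 1) values. For *rsrA* over the 6 libraries these were *POX_a00807* (difference 0.0275), *POX_c04151* (0.0431) and *POX_d05182* (0.0449). The nearest, *POX_a00807*, was at 73.1, 79.9 and 92.5 FPKM in the parent and 63.5, 52.2 and 55.6 FPKM in the mutant, the same order of libraries as *rsrA*. In all, 31 genes lay within a difference of 0.1 from *rsrA*.

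For *rsrB* the most alike over the 6 libraries were *POX_e07089* (0.0419), *POX_c04167* (0.0427) and *POX_a01130* (0.0448), and 107 genes lay within 0.1. The nearest, *POX_e07089*, was at 271.3, 284.5 and 369.1 FPKM in the parent and 381.4, 338.1 and 339.5 FPKM in the mutant. As *rsrC* was at 0 in the mutant, its profile was compared over the 3 Δ*ku70* libraries only, where 723 genes lay within 0.1, the nearest being *POX_d04865* (0.00615), *POX_b02924* (0.00763) and *POX_d06084* (0.00816). These 3 genes took different courses in the mutant. In Δ*rsrC* replicates 1, 2 and 3, *POX_d04865* was at 39.3, 35.3 and 33.7 FPKM, close to its 30.1, 33.4 and 43.4 FPKM in Δ*ku70*. By contrast, *POX_b02924* went from 29.0, 32.0 and 41.4 to 337.2, 193.1 and 144.7 FPKM. A likeness over 3 libraries is thus shared by many genes and says nothing of function or control.

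The libraries differed in ways that touch these values. Each held 8451 to 8535 genes at 1 FPKM or more. Relative depth, read from the steps between low values, ran from 77.9% to 105% (replicates 1 and 2 of the mutant), as a share of that of Δ*ku70* replicate 1, and absolute depth is unknown. Each of these shares rests on only 30 to 63 genes and is rough. In all, 3386 of the 8605 tested genes passed, 1184 higher and 2202 lower in Δ*rsrC*. The split was 742 higher and 3653 lower after TPM rescaling, and 1623 higher and 1490 lower after median-ratio scaling. Of 3 conidiation genes read because the samples are labelled mycelium, 2 fell in Δ*rsrC* beside *rsrA*. The *rodA*-like gene, of a hydrophobin, was at 87.1 to 145.8 FPKM in the parent and 24.4 to 43.0 FPKM in the mutant (log2 change -1.72, adjusted p = 0.00421), and *rodB*, also of a hydrophobin, at 66.7 to 87.0 and 13.4 to 49.5 FPKM (-1.39, adjusted p = 0.0425, passing in 5 of the 14 alternatives, and -0.85 when replicate 3 of the mutant was left out). In *Aspergillus*, RodA coats the conidia. The level of *brlA* is given above. The part of conidiation in the fall of *rsrA* was not tested.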

How the data were processed

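Polyadenylated RNA from 6 libraries was sequenced on a BGISEQ platform. According to the study, reads were processed with BWA, Bowtie2 and RSEM, and the submitters' processing notes also name bcl2fastq and HISAT2. FPKM for 9822 genes were deposited by the authors, with a separate table for each library. FPKM is scaled to all mapped fragments of a library, so a few genes that take more fragments lower the values of all others, and the counts behind a value are not known.

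Groups were taken from the sample titles. Values were transformed as log2(FPKM + 1), which understates the change of low genes. Genes whose mean over the libraries reached 1 FPKM (8605) were fitted with limma 3.58.1 in R 4.3.3 (eBayes with an intensity trend, no covariate). The Benjamini-Hochberg adjustment of the two-sided p-values ran over all tested genes (threshold 0.05). The study used NOISeq, which could not be run here. Ratios within a library were compared with exact permutation tests.

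The genes and lists were chosen with earlier results of these data known. The text names the 3 regulators, all genes of the lists and the 3 genes most alike to each regulator. The alternatives were pseudocounts of 0.1 and 0.5, no filter, TPM rescaling, median-ratio scaling, quantile normalisation, no intensity trend, a replicate block, and leaving out each library in turn. The RefSeq table of assembly ASM172317v3 matched 9718 of the 9822 gene IDs and was used for gene order and lengths only, since the tables name no genome build.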

Additional observations from a re-analysis of the deposited data

How the results depend on the processing

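Of the 14 alternatives, 8 took the adjusted p-value of *rsrA* above the threshold of 0.05. These were no filter on low values (-0.49, adjusted p = 0.0573), median-ratio scaling (-0.36), quantile normalisation (-0.27), the replicate block (-0.49, adjusted p = 0.0761) and the fits without Δ*ku70* replicate 2 or 3 or Δ*rsrC* replicate 2 or 3. For *rsrB* the log2 change was -0.016 after TPM rescaling. Over the 6 fits without 1 library each, the log2 change ran from -0.59 to -0.39 for *rsrA*, 0.13 to 0.35 for *rsrB* and -5.14 to -4.89 for *rsrC*, and that of the *rsrB* to *rsrA* ratio from 0.63 to 0.78. The genes called numbered 2126 (without Δ*rsrC* replicate 1) to 3476 (without Δ*ku70* replicate 3), the candidates called 4 to 5 and the neighbouring genes called 2 to 4. Of the 13 candidates, quantile normalisation called 3 and TPM rescaling called 9, in place of 6. TPM rescaling also called 3 of the 3 other regulators in place of 1. The causes of these differences were not tested.

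The same-numbered libraries of the strains did not deviate together (r = 0.0046, -0.13 and -0.24 across genes, which are not independent). For libraries of unlike number, r ran from -0.097 to 0.22. No pairing by replicate number was thus seen, but 3 libraries of each strain cannot show whether same-numbered ones were handled together. With the replicate number as a block, 2213 genes were called in place of 3386. The *rsrC* call, which the deletion fixed, held in all 14. The counts of called genes among the RsrB promoter targets and the other amylolytic genes also stayed as they were in all 14. As absolute depth is unknown, no detection floor can be given for *rsrC* in the mutant.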
